A study of Mus musculus with 11 samples.

Results

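The change from zygote to 2-cell embryo was followed in mice after round spermatid injection (ROSI), in which a haploid round spermatid, a germ cell that has finished meiosis but has not yet become a sperm, is injected into an egg. The labels put 5 of the 11 libraries of the series into this comparison, 2 of ROSI zygotes and 3 of ROSI 2-cell embryos. All embryos were of strain C57BL/6. The ROSI embryos of both stages were activated with 5 mM SrCl2 in CZB medium free of calcium for 1 to 2 h and then kept in KSOM until collection. The other 6 libraries were 3 of zygotes and 3 of 2-cell embryos made by intracytoplasmic sperm injection (ICSI), kept in KSOM. They entered the model that estimates the spread of each gene and served for 1 comparison at the end. Collection times and the number of embryos pooled per library are not given in the sources used here, nor whether replicates came from separate injections, so p-values reflect only how far the replicate libraries of a group scatter, which may be technical.

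A mouse egg is loaded during growth with RNA for its zona coat, its meiotic divisions and its first cleavage, and transcription is then silent until after fertilization. Stored RNA is removed by shortening of poly(A) tails and decay, in part through the adaptor Btg4 and the CCR4-NOT deadenylase. The embryonic genome is activated in a minor wave in the zygote and a major wave in the 2-cell embryo, when genes such as Zscan4, Zfp352 and the Obox homeobox genes are transcribed. A round spermatid cannot activate the egg by itself, which is why strontium is used.

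Each library gave a value for 49585 genes in TPM, a read count divided by gene length and scaled so that each library sums to 1000000. The ROSI libraries held 20.5 to 85.9 recovered reads in units of 1e6. For a gene of 2 kb, 3 reads corresponded to between 0.051 and 0.18 TPM in the ROSI libraries. TPM are shares of the RNA in a library, so loss of 1 transcript and gain of the others cannot be told apart, nor can RNA per embryo be read from them. Replicates correlated over genes at 0.977 in zygotes and between 0.951 and 0.962 in 2-cell embryos, against 0.680 to 0.699 between stages. The RNA classes shifted between the stages. Nuclear protein-coding genes held 64.5% and 63.7% of all TPM in the zygotes and 38.5%, 42.3% and 44.8% in the 2-cell embryos. Mitochondrially encoded genes held 9.97% and 10.2%, then 21.9%, 23.3% and 25.8%. Gm23935, a locus of 57 bases annotated as a microRNA, held 14.9% and 13.3% in the zygotes and 23.7%, 17.7% and 12.7% in the 2-cell embryos. The small nuclear and nucleolar RNAs held 0.611% in zygote library 1 and 2.58% in zygote library 2, so the zygote libraries differed from each other here.

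**Figure D1:**
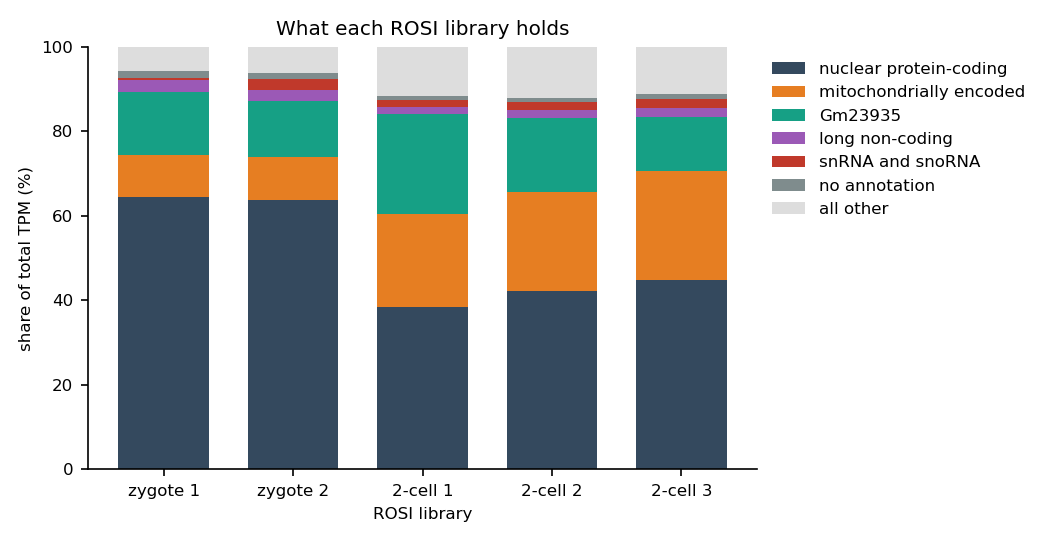
Stacked bars give the share of total TPM (%) by RNA class in each of the 5 ROSI libraries. The nuclear protein-coding part falls from 64.5% and 63.7% in the zygotes to between 38.5% and 44.8% in the 2-cell embryos, while the mitochondrial part grows.

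Of 21938 genes tested with limma on log2(TPM + 1), 7811 were called higher (35.6%) and 7088 lower (32.3%) in ROSI 2-cell embryos than in ROSI zygotes, 67.9% in all at an adjusted p under 0.05. By at least 2 on the log2 scale, 2826 were higher (12.9%) and 1965 lower (8.96%). The 3 libraries of one stage lay wholly above or below the 2 of the other for 76.1% of genes. Below, a log2 difference is that of TPM + 1, 2-cell minus zygote, with its standard error (SE), and an adjusted p is limma's over these genes. The scale understates the fold of genes with low TPM. The median difference was 0.19 over all genes and -0.10 over the 13925 protein-coding genes. Of the protein-coding genes, 36.4% were called higher and 41.2% lower. These shares are the background for the lists below. When TPM were divided by the protein-coding share of each library, the median over all genes moved to 0.56, 9438 genes were called higher and 5667 lower, so a count of higher against lower genes depends on the scale, and differences of lists are given beside these medians.

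Genes were grouped by their zygote level, which also enters the difference, so that groups of high level lean to falls by construction, and the shares are a description only. Of the 171 protein-coding genes at 500 TPM or more in zygotes, 87.7% were called lower, with a median log2 difference of -2.21, and 8.19% higher. Of the 2447 genes from 50 to 500 TPM, 74.3% were lower and 11.4% higher. Between 0.5 and 5 TPM, 20.9% of 4588 were lower and 45.1% higher. Genes that start near 0 could only be tested if they reached 1 TPM elsewhere, so their direction was set by the filter. The 100 protein-coding genes highest in zygotes took 27.8% and 26.9% of all protein-coding TPM there and between 20.7% and 22.5% in 2-cell embryos, and 85 of them were called lower and 12 higher. Of the 100 highest in 2-cell embryos, chosen the mirror way, 57 were higher and 30 lower, and 40 genes were in both sets.

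**Figure D2:**
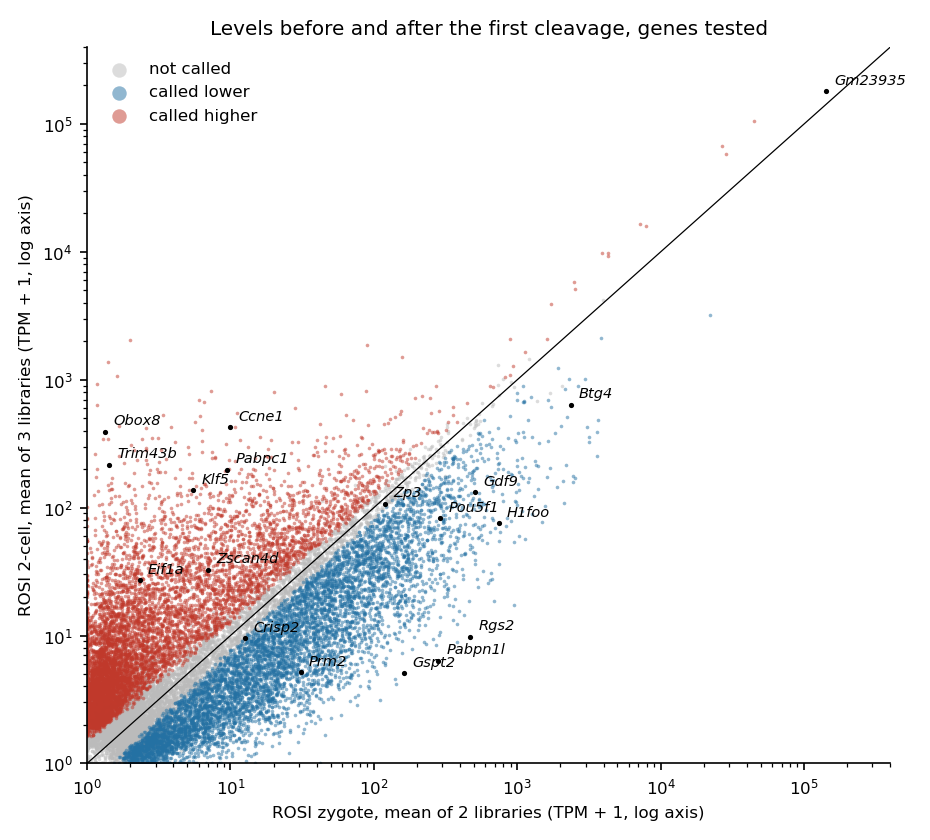
Each point is 1 gene tested, with its mean TPM + 1 in the 2 ROSI zygote libraries on the horizontal and in the 3 ROSI 2-cell libraries on the vertical log axis, coloured by its call. The cloud is widest at low zygote levels above the diagonal, where Obox8 and Trim43b lie, and at zygote levels above 100 TPM below it, where Rgs2, Pabpn1l and Gspt2 lie.

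The stored transcripts of the oocyte gave the most uniform losses. Of 16 genes tested of the subcortical maternal complex, a protein lattice under the egg membrane, and of the oocyte Nlrp family, all 16 were called lower, with a median log2 difference of -2.98 and summed TPM of 6535 and 7003 in zygotes against 603, 694.1 and 788.9 in 2-cell embryos. Nlrp5, also known as Mater, had 841 and 971 TPM in the zygotes and 72.9, 78.3 and 83.1 TPM in the 2-cell embryos (log2 difference -3.52, SE 0.12, adjusted p = 2.65e-09). Ooep, which encodes another member of the complex, had 615 and 702 TPM, then 28.3, 31.1 and 29.5 TPM (log2 difference -4.42, SE 0.12, adjusted p = 8.47e-10). In both genes every 2-cell library lay far below every zygote library. Khdc3, or Filia, was the least abundant of those named, at 9.81 and 8.04 TPM and then 2.13, 2.38 and 2.66 TPM (log2 difference -1.55, SE 0.30, adjusted p = 0.000813).

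Among 53 other stored oocyte transcripts, 48 were lower and 3 higher, with a median log2 difference of -2.35. Oog4, an oocyte gene of the Oogenesin family, had 606 and 647 TPM in zygotes and 18.4, 24.5 and 30.7 TPM afterwards (log2 difference -4.65, SE 0.17, adjusted p = 3.86e-09). Npm2, the nucleoplasmin that remodels sperm chromatin, had 2755 and 3384 TPM and 366, 423 and 486 TPM (log2 difference -2.85, SE 0.16, adjusted p = 7.33e-08), with no overlap between stages. Dppa3, or Stella, which protects the maternal genome from demethylation, stayed abundant, at 3675 and 3936 TPM in zygotes and 1621, 2317 and 2446 TPM in 2-cell embryos, and was called lower (log2 difference -0.86, SE 0.18, adjusted p = 0.00134). Rfpl4b went the other way, with 1.42 and 0.259 TPM in zygotes and 49.03, 50.1 and 67.3 TPM in 2-cell embryos (log2 difference 5.00, SE 0.27, adjusted p = 5.24e-08). Ddx4, or Vasa, a helicase of germ cells, was called higher only narrowly (log2 difference 0.42, SE 0.17, adjusted p = 0.0425), with 46.2 and 50.9 TPM, then 52.0, 71.7 and 74.4 TPM. The zygote libraries of Ddx4 lay just below the lowest 2-cell library, and the call was lost when any 1 of the 2 zygote libraries or of 2-cell libraries 2 and 3 was left out.

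Of 14 genes of the zona pellucida and of factors that oocytes secrete, 11 were lower and 1 higher, with a median of -1.38. Gdf9 and Bmp15 are growth factors that the oocyte sends to its follicle cells. Bmp15 had 1598 and 1647 TPM in zygotes and 147, 169 and 204 TPM in 2-cell embryos (log2 difference -3.23, SE 0.13, adjusted p = 6.96e-09), and Gdf9 had 462 and 550.5 TPM and 119.6, 130.2 and 144 TPM (log2 difference -1.94, SE 0.13, adjusted p = 2.68e-07). Both genes were lower in every 2-cell library. Zp3, the sperm-binding glycoprotein of the zona, did not share this pattern. It had 129.6 and 109 TPM in zygotes and 90.9, 110.2 and 119 TPM in 2-cell embryos, its libraries overlapped, and it was not called (log2 difference -0.16, SE 0.15, adjusted p = 0.352). With TPM rescaled to protein-coding genes its difference was 0.31, which limma called among protein-coding genes (adjusted p = 0.0358) and not among all genes (adjusted p = 0.0540). Omt2a was also flat, at 787 and 698 TPM and 752, 691 and 821 TPM (log2 difference 0.02, SE 0.11, adjusted p = 0.866), and was called higher on the protein-coding scale, by 0.50.

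Genes of meiosis and egg activation were lower in 32 and higher in 7 of 41 cases, with a median of -1.11. Izumo1r, or Juno, the egg receptor for sperm, had 141 and 131 TPM in zygotes and 9.96, 8.57 and 9.78 TPM in 2-cell embryos (log2 difference -3.72, SE 0.12, adjusted p = 2.07e-09). Camk2g, the kinase that carries the calcium signal of egg activation, had 460.3 and 470.5 TPM and then 43.1, 43.2 and 53.4 TPM (log2 difference -3.30, SE 0.13, adjusted p = 5.73e-09). Mos, the kinase that holds the egg in meiotic arrest, was already low, at 16.01 and 15.4 TPM, and had 7.3, 7.56 and 5.61 TPM in 2-cell embryos (log2 difference -1.11, SE 0.22, adjusted p = 0.00101). Cdc25c, a phosphatase that starts mitosis, rose from 8.46 and 7.79 TPM to 86.4, 98.2 and 94.2 TPM (log2 difference 3.36, SE 0.16, adjusted p = 1.96e-08).

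Among genes with an ordinary symbol, the largest falls included Rgs2 and Pabpn1l. Gm813, a protein-coding gene with a predicted symbol, fell more, with a log2 difference of -5.77. Rgs2, which switches off G protein signalling, had 456 and 480.4 TPM in zygotes and 7.83, 6.97 and 11.6 TPM in 2-cell embryos (log2 difference -5.61, SE 0.16, adjusted p = 1.15e-09). Pabpn1l, an oocyte form of the nuclear poly(A)-binding protein, had 257 and 304 TPM and 4.2, 5.44 and 6.41 TPM (log2 difference -5.48, SE 0.25, adjusted p = 1.51e-08). Gspt2, a translation release factor, had 166 and 158 TPM and 3.56, 3.49 and 5.26 TPM (log2 difference -5.01, SE 0.14, adjusted p = 1.05e-09). In each the lowest zygote library was more than 100 TPM above the highest 2-cell library. Pfdn4, a subunit of the prefoldin chaperone, Oas1h, of the oligoadenylate synthetase family, and Wdr76 had log2 differences of -5.19, -4.99 and -4.79. Cited2, a transcriptional co-regulator, Glrx, or glutaredoxin, and Rnaset2a, a ribonuclease, had differences of -4.74, -4.78 and -4.97. Zbed3 was the most abundant named messenger of the zygote, listed at 23987 and 20058 TPM and then at 2796, 2712 and 4164 TPM (log2 difference -2.79, SE 0.19, adjusted p = 2.67e-07). The gene holds the small nucleolar RNA genes Snora47 and Gm22661 on the same strand, which cannot be told apart from it in these values.

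The machinery of RNA decay changed in both directions. Of 54 genes, 26 were lower (48.1%) and 19 higher (35.2%), with a median of -0.31. These shares are near those of all protein-coding genes tested, 41.2% and 36.4%, so they show nothing particular to the list. On the protein-coding scale 19 were lower and 25 higher, so no direction holds for the list. Btg4, the adaptor that brings the deadenylase to stored messengers, had 2465 and 2255 TPM in zygotes and 470.0, 643 and 798 TPM in 2-cell embryos (log2 difference -1.92, SE 0.19, adjusted p = 5.54e-06). Cnot6l, a catalytic subunit of CCR4-NOT, had 180.0 and 164 TPM and 33.9, 34.6 and 47.04 TPM (log2 difference -2.15, SE 0.15, adjusted p = 3.77e-07), and Cnot11, another subunit, had a difference of -3.26. Zcchc11, or Tut4, an enzyme that adds uridines to messengers, rose from 1.09 and 0.982 TPM to 14.3, 15.3 and 20.4 TPM (log2 difference 3.10, SE 0.19, adjusted p = 1.1e-07). Of 32 genes of cytoplasmic polyadenylation and translational control, 19 were lower and 9 higher, with a median of -0.95, and 17 were lower and 13 higher on the protein-coding scale. Zar1l, an oocyte RNA-binding protein, had 789 and 1272 TPM in zygotes and 60.1, 56.8 and 59.3 TPM afterwards (log2 difference -4.07, SE 0.20, adjusted p = 2.89e-08). Slbp, which binds the stem-loop of histone messengers, had 917 and 1012 TPM and 90.2, 110.3 and 132 TPM (log2 difference -3.13, SE 0.17, adjusted p = 4.36e-08).

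Among genes with an ordinary symbol, the largest rises included homeobox and Trim43 genes. Genes known only by a predicted symbol are left out of this ranking, and several of them rose more, up to a log2 difference of 10.07 for Gm5612, a processed pseudogene. Obox8 had 0.256 and 0.409 TPM in the zygotes and 353, 414 and 409 TPM in the 2-cell embryos (log2 difference 8.20, SE 0.21, adjusted p = 8.4e-10). Obox6 had 0.741 and 0.609 TPM and 407, 434 and 467 TPM (log2 difference 8.03, SE 0.17, adjusted p = 3.96e-10). For both genes the 2-cell libraries lay between 353 and 467 TPM and no zygote library reached 1 TPM. Trim43a and Trim43b, which encode tripartite-motif proteins of the early embryo, had 0.1 and 0.189 TPM and 0.704 and 0.136 TPM in zygotes and 155, 197 and 165 TPM and 180.4, 257 and 211 TPM in 2-cell embryos. Their log2 differences were 7.23 (SE 0.16) and 7.27 (SE 0.24). Copies of the Obox, Trim43, Zscan4, Tdpoz and Usp17l families are near-identical in part, and how the authors counted reads shared between copies is not given in the sources used here, so the split among copies is uncertain.

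Other genes with the largest rises have roles outside transcription. Selenos, a selenoprotein of the endoplasmic reticulum, went from 2.16 and 2.61 TPM to 476, 499 and 611 TPM (log2 difference 7.29, SE 0.20, adjusted p = 1.04e-09). Calcoco2, an autophagy receptor, went from 1.47 and 0.568 TPM to 317, 325 and 281 TPM (log2 difference 7.29, SE 0.21, adjusted p = 1.05e-09), and Cd63, a tetraspanin of endosomes, from 0.579 and 1.69 TPM to 244, 331 and 274 TPM (log2 difference 7.10, SE 0.27, adjusted p = 4.43e-09). All 3 were higher in each 2-cell library by more than 200 TPM. Pdxk, the kinase that makes active vitamin B6, and Slc19a3, a thiamine transporter, rose by 6.87 (SE 0.23) and 6.83 (SE 0.16). Alppl2, an alkaline phosphatase, Slc34a2, a phosphate transporter, and Prps1, which makes the sugar phosphate for nucleotides, rose by 6.82 (SE 0.19), 6.82 (SE 0.20) and 6.79 (SE 0.16). Pramel7, Guca1a and Btbd18 completed the 15 largest rises among genes with an ordinary symbol, at 6.94, 6.93 and 6.79.

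The stretches upstream of the start sites of the first 4 of these genes with an entry in RefSeq (GRCm38.p6) are shown, because their 2-cell levels rose from near 0 together and they differ in CpG content. Each line gives the 150 bases before the annotated start, 5′ to 3′ on the gene's strand, with capitals for matches to CCAAT or GGGCGG on either strand; TATAAA was searched too.
Selenos, chr7:66079499-66079648, plus strand: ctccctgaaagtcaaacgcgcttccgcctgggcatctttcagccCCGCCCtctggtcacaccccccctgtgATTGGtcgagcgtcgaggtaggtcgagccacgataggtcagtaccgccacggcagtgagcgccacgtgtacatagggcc
Trim43a, chr9:88580741-88580890, plus strand: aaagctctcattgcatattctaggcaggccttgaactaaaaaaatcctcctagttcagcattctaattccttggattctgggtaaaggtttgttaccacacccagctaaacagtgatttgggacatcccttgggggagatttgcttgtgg
Cd63, chr10:128909195-128909344, plus strand: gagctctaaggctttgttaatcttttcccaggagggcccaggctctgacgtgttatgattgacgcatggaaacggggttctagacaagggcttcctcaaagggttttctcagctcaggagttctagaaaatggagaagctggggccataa
Pramel7, chr2:87492419-87492568, minus strand: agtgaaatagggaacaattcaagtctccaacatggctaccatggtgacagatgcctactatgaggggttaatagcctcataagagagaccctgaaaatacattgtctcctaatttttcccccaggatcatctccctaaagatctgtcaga
The Selenos stretch holds 1 match to each of CCAAT and GGGCGG, both on the minus strand and sharing no base, and the other stretches hold none of the 3 motifs. In the window of 300 bases around the start (250 before, 50 after), CpG occurred 23 times for Selenos, 6 for Cd63 and once each for Trim43a and Pramel7.

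Over all 27025 promoter windows of the table, CCAAT occurred in 37.9%, GGGCGG in 35.9% and TATAAA in 14.2%, on either strand. A comparison of motifs between genes that rose and fell is void, since only 74.6% and 79.7% of those called by at least 2 on the log2 scale had a window in the table. Exon structure was known for all. The 1719 protein-coding genes that rose by at least 2 had a median of 7 merged exons, against 10 for the 1561 that fell and 9 for all tested, and 7.04% against 1.99% and 3.64% had a single exon. Their median summed exon length was 3466 bases, against 3554 and 4049, and the median GC content of their longest transcript was 51.1%, against 48.3% and 49.7%.

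Genes known from the 2-cell stage rose as a group, and 4 of them fell. Of 43 tested, 36 were called higher and 4 lower, with a median log2 difference of 3.25. Zscan4d, a zinc finger gene of 2-cell embryos, had 5.08 and 6.91 TPM in zygotes and 29.3, 27.9 and 38.3 TPM in 2-cell embryos (log2 difference 2.23, SE 0.20, adjusted p = 2.48e-06). Zfp352, another marker of the stage, had 15.2 and 10.4 TPM and 123, 155 and 161 TPM (log2 difference 3.43, SE 0.27, adjusted p = 9.55e-07). Duxf3, the mouse Dux factor that binds promoters of such genes, was already present in zygotes at 15.2 and 14.4 TPM and was lower in 2-cell embryos, at 0.998, 0.489 and 1.76 TPM (log2 difference -2.97, SE 0.30, adjusted p = 6.46e-06). The ubiquitin ligase gene Rnf168 was abundant in zygotes, at 239 and 236 TPM, and fell to 39.8, 41.8 and 50.4 TPM (log2 difference -2.41, SE 0.12, adjusted p = 2.61e-08). The list was drawn up with earlier results of these data known, so its direction is no independent evidence.

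Among 46 regulators named in genome activation, 27 rose and 15 fell, with a median of 0.96. Obox3 rose from 1.06 and 0.631 TPM to 43.3, 68.5 and 65.7 TPM (log2 difference 5.01, SE 0.23, adjusted p = 1.52e-08). Tead4, needed for the trophectoderm, went from 0.636 and 0.446 TPM to 41.4, 47.1 and 47.2 TPM (log2 difference 4.91, SE 0.14, adjusted p = 1.06e-09), and Klf5, a Krüppel-like factor, from 6.48 and 2.54 TPM to 145, 142 and 123 TPM (log2 difference 4.74, SE 0.32, adjusted p = 2.46e-07). None of the 3 had a zygote library above 10 TPM. Nr5a2, an orphan nuclear receptor, started higher and rose less, from 33.1 and 37.7 TPM to 97.2, 99.9 and 102 TPM (log2 difference 1.47, SE 0.10, adjusted p = 2.88e-07). Dppa2 and Dppa4 encode partner proteins that bind the Dux promoter. Dppa2 had 167 and 149 TPM and 309, 345 and 356 TPM (log2 difference 1.09, SE 0.11, adjusted p = 7.04e-06), and Dppa4 had 12.3 and 22.5 TPM and 179.5, 206 and 229 TPM (log2 difference 3.53, SE 0.22, adjusted p = 1.49e-07). Of 34 pluripotency and early lineage genes, 20 rose and 7 fell, with a median of 0.79. Pou5f1, or Oct4, is carried by the egg and fell from 293 and 287 TPM to 77.7, 72.96 and 96.1 TPM (log2 difference -1.82, SE 0.13, adjusted p = 3.35e-07). Fgf4, the growth factor of the inner cell mass, rose from 0.125 and 0.0961 TPM to 20.2, 21.3 and 22.5 TPM (log2 difference 4.33, SE 0.19, adjusted p = 1.42e-08).

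A stricter view counted genes that went from under 0.5 TPM in both zygote libraries to at least 5 TPM in all 3 2-cell libraries. There were 393 such genes, 1.02% of the 38628 with a value above 0 in a ROSI library, and 208 were protein-coding. Together they took 82.5 and 70.1 TPM in zygotes and 9320, 10660 and 10490 TPM in 2-cell embryos. The highest protein-coding genes with an ordinary symbol, after Obox8 and Trim43a, were Spic, a factor of the ETS family, at 91.3, 114 and 109.8 TPM, and Ctsc, a lysosomal protease, at 72.5, 90.9 and 91.95 TPM. These were picked from their values. By the same limits 268 genes switched on after ICSI, and 157 were shared, which is 39.9% of the ROSI genes and 58.6% of the ICSI genes. Without zygote replicate 1 the count was 638, but leaving out a library drops a condition of the rule, so the count cannot fall. Over protein-coding genes the count was 238 with TPM rescaled to them, against the 208 before.

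Of 380 switched-on genes with a place in the annotation, 188 had another within 500 kb. No such share was taken for other genes, so it does not show that switched-on genes cluster. The largest group was on chromosome 3 between 93628640 and 94266784 (mm10). It held 17 switched-on genes, among them Tdpoz1, Tdpoz2 and Tdpoz4, which encode speckle-type POZ domain proteins. Of the 29 genes tested in the stretch, 25 were called higher. The 17 genes that set its bounds are among these 25 by construction, so the count is no evidence of a shared rise. Tdpoz4 was listed at 0 in both zygote libraries and had 80.4, 84.1 and 79.1 TPM in 2-cell embryos. Another group of 5, on chromosome 7 between 14331436 and 14933238, held Obox8 with 2 Obox3 pseudogenes.

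The reverse, at least 5 TPM in both zygote libraries and under 0.5 TPM in every 2-cell library, held for only 19 genes (0.0492%). Genes under 5 TPM in a zygote library could not enter this count, so it does not give the share of falling genes that were still measurable. The 5 protein-coding genes of this set, named after their values were seen, were Edn1, which encodes endothelin, Rhox1, a homeobox gene, Ccdc3, Iltifb and Sdhaf3. Edn1 had 11.04 and 12.7 TPM in zygotes and 0, 0 and 0.155 TPM in 2-cell embryos, and Rhox1 had 10.3 and 14.3 TPM and 0.105, 0.23 and 0.137 TPM. Leaving out a library drops a condition of the rule, so the count cannot fall. It was 37 and 43 without zygote libraries 1 and 2, and 29, 42 and 49 without 2-cell libraries 1, 2 and 3.

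Genes of protein synthesis did not move as 1 block. Ribosomal protein genes rose in 69 of 85 cases and fell in 8, with a median of 1.43, and their summed TPM went from 6570 and 7601 in zygotes to 15470, 17670 and 16260 in 2-cell embryos. Rpsa, of the small subunit, had 4.84 and 3.49 TPM and then 156, 189 and 167 TPM (log2 difference 5.06, SE 0.14, adjusted p = 1.04e-09), and the locus holds small nucleolar RNA genes whose reads cannot be told apart from it. Rpl17 fell, from 785 and 728 TPM to 251, 318 and 341 TPM (log2 difference -1.33, SE 0.13, adjusted p = 4.02e-06), and it too holds small nucleolar RNA genes on its strand, among them Snord58b, at a mean of 94.8 TPM and then 42.2 TPM. Genes of ribosome biogenesis and RNA polymerase I rose in 39 and fell in 13 of 61 cases, with a median of 1.06. Nop16, a nucleolar assembly factor, rose from 0.755 and 1.02 TPM to 82.1, 90.9 and 97.6 TPM (log2 difference 5.59, SE 0.19, adjusted p = 2.79e-09). Npm1 and Ncl, the abundant nucleolar proteins, did not follow. Npm1 had 1318 and 1167 TPM in zygotes and 651, 784 and 775 TPM in 2-cell embryos (log2 difference -0.76, SE 0.13, adjusted p = 0.000353), and Ncl had 436 and 466 TPM and 278, 307 and 277 TPM (log2 difference -0.65, SE 0.14, adjusted p = 0.00186). With quantile normalization the differences of Npm1 and Ncl were 0.065 and 0.071 and were not called, and on the protein-coding scale Ncl was not called. Ncl also holds a small nucleolar RNA gene, Snord82, on its strand.

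Proteasome genes fell in 21 and rose in 7 of 31 cases (median -0.94), and spliceosome genes fell in 29 and rose in 15 of 52 (median -0.56). On the protein-coding scale 19 proteasome genes fell and 8 rose, but spliceosome genes were nearly even, with 23 down, 21 up and a median of -0.10. Psma7, a subunit of the proteasome core, had 243 and 231 TPM in zygotes and 12.2, 13.2 and 12.6 TPM in 2-cell embryos (log2 difference -4.12, SE 0.13, adjusted p = 1.93e-09). Psmb5, which carries a catalytic site of the same core, rose from 4.46 and 5.13 TPM to 26.3, 39.03 and 33.4 TPM (log2 difference 2.53, SE 0.27, adjusted p = 8.25e-06). In the spliceosome, Prpf6 fell from 271 and 259.5 TPM to 26.5, 27.3 and 26.3 TPM (log2 difference -3.27, SE 0.09, adjusted p = 1.13e-09), while Cdc5l rose from 8.06 and 7.54 TPM to 97.1, 112 and 129 TPM (log2 difference 3.68, SE 0.20, adjusted p = 4.66e-08). Of 20 aminoacyl-tRNA synthetases 12 fell and 5 rose (median -0.53), and 9 fell and 8 rose on the protein-coding scale (median -0.07). Translation factors were split evenly, with 19 up and 19 down of 48. That is 39.6% each, near the shares of all protein-coding genes. On the protein-coding scale 28 were up and 14 down. Of 28 chaperones, 14 rose and 11 fell (median 0.31). Hsp90aa1 fell from 2111 and 1907 TPM to 428, 439.6 and 428 TPM (log2 difference -2.21, SE 0.11, adjusted p = 2.13e-08), and Hspa1b, a heat shock gene known from early genome activation, rose from 9.59 and 11.97 TPM to 17.5, 21.7 and 24.6 TPM (log2 difference 0.91, SE 0.20, adjusted p = 0.00181).

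**Figure D3:**
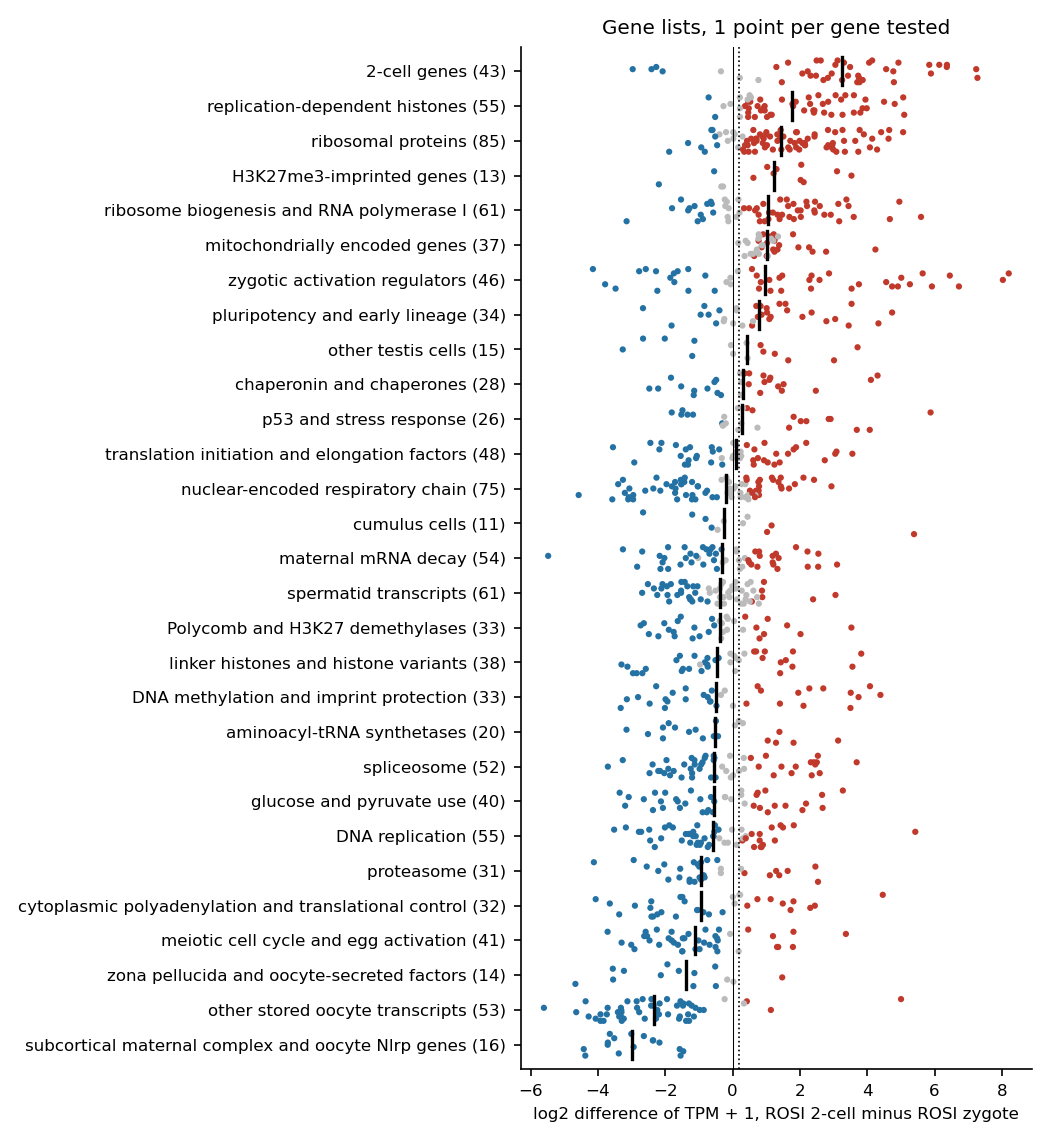
Each row is a gene list with the number of genes tested in brackets, each point is a gene at its log2 difference (2-cell minus zygote, TPM + 1), red if called higher, blue if called lower and grey if not called, and black bars are list medians. The dotted line is the median of all genes, 0.19. The lists run from a median of -2.98 for the subcortical maternal complex to 3.25 for 2-cell genes, and most lists in between hold genes of both colours.

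In several families a member stored in the egg fell while a close relative rose. These families were chosen after their values were seen and are described only. Obox1, Obox2, Obox5 and Obox7 fell, with log2 differences of -3.79 (SE 0.19), -4.15 (SE 0.21), -2.78 (SE 0.19) and -3.48 (SE 0.17), while Obox3, Obox6 and Obox8 rose. Obox2 had 790.1 and 1117 TPM in zygotes and 42.4, 48.6 and 67.6 TPM in 2-cell embryos, and it overlaps Obox1 on the same strand, so these values cannot be told apart. Eif1b and Eif1ax, of translation initiation, fell from 740.4 and 768 TPM to 59.6, 70.7 and 59.8 TPM (log2 difference -3.56, SE 0.10, adjusted p = 1.13e-09) and from 76.5 and 97.6 TPM to 9.18, 9.08 and 13.9 TPM (log2 difference -2.92, SE 0.18, adjusted p = 1.57e-07). Eif1a, the relative of Eif1ax known as a gene of early activation, rose from 1.66 and 0.996 TPM to 25.1, 27.2 and 26.01 TPM (log2 difference 3.56, SE 0.18, adjusted p = 2.63e-08). Eif1, the relative of Eif1b and not of Eif1a, had 320.1 and 260.3 TPM and 259, 312 and 367 TPM, with overlapping libraries. Eif1 was not called (log2 difference 0.10, SE 0.14, adjusted p = 0.553), and was called higher on the protein-coding scale, by 0.58.

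Poly(A)-binding proteins showed the same split. Pabpc1l, the oocyte form, fell from 183 and 184 TPM to 12.2, 14.1 and 15.02 TPM (log2 difference -3.65, SE 0.15, adjusted p = 8.12e-09), while Pabpc1, the form of most cells, rose from 11.3 and 5.6 TPM to 174, 210.3 and 209 TPM (log2 difference 4.46, SE 0.23, adjusted p = 3.9e-08). Pabpn1l fell, as given above, and Pabpn1 rose from 13.9 and 16.6 TPM to 76.1, 91.96 and 93.9 TPM (log2 difference 2.44, SE 0.12, adjusted p = 2.12e-08). Among the cyclins, Ccnb1, which drives mitosis, fell from 503 and 469 TPM to 149.6, 182 and 183 TPM (log2 difference -1.50, SE 0.11, adjusted p = 6.62e-07). Ccne2 fell from 58.0 and 76.2 TPM to 22.2, 23.5 and 22.4 TPM (log2 difference -1.51, SE 0.15, adjusted p = 4.17e-06), whereas Ccne1, also a cyclin of entry into S phase, rose from 9.09 and 8.72 TPM to 386, 424 and 467 TPM (log2 difference 5.42, SE 0.16, adjusted p = 1.13e-09). Tet3, the dioxygenase that oxidizes DNA methylation in the zygote, fell from 325 and 262 TPM to 49.03, 47.5 and 60.1 TPM (log2 difference -2.47, SE 0.18, adjusted p = 4.62e-07), and Tet1 rose from 1.7 and 1.12 TPM to 38.8, 38.0 and 41.7 TPM (log2 difference 4.08, SE 0.19, adjusted p = 1.73e-08). Idh1 and Idh2, isocitrate dehydrogenases, had differences of -3.19 (SE 0.24) and 3.27 (SE 0.21), both called.

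**Figure D4:**
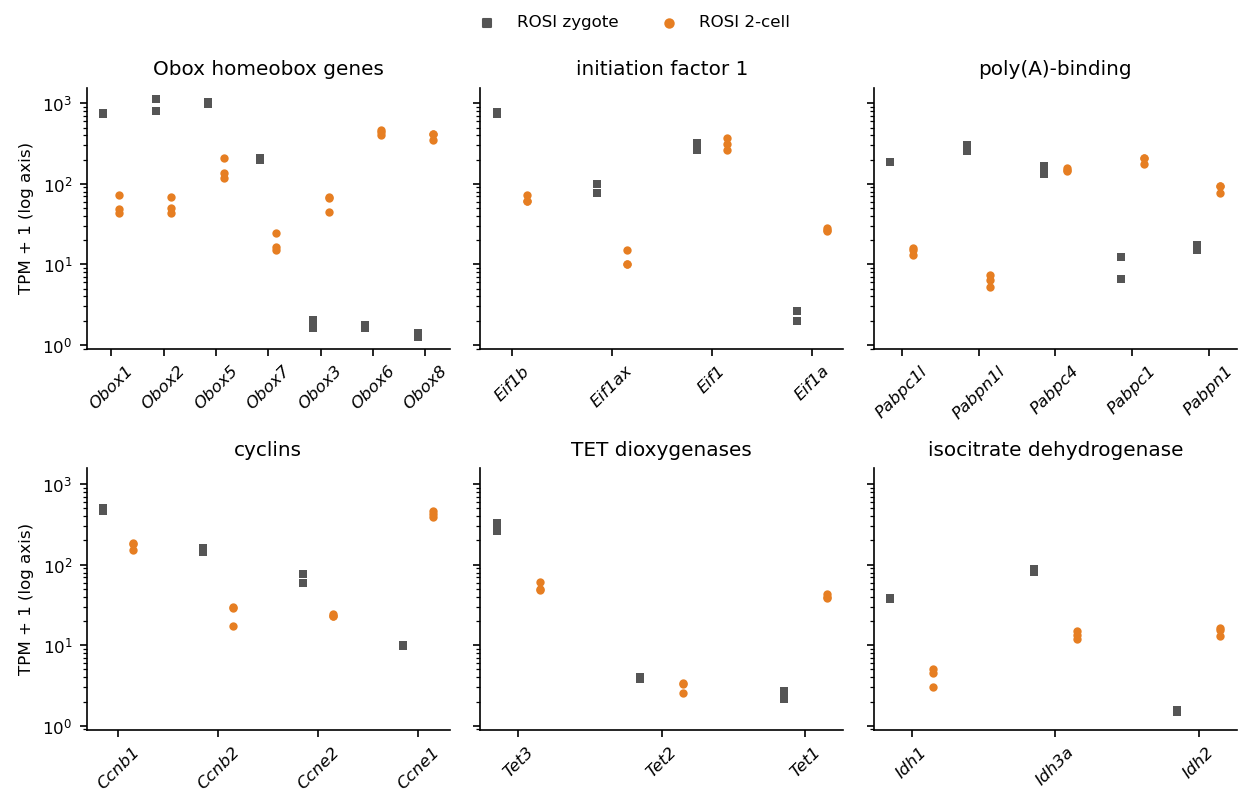
TPM + 1 on a log axis for related genes, with grey squares for the 2 ROSI zygote libraries and orange circles for the 3 ROSI 2-cell libraries. In each panel the genes at the left are lower in every 2-cell library and the gene at the right is higher in every 2-cell library, while Eif1, Pabpc4 and Tet2 were not called; Eif1 and Pabpc4 were called higher on the protein-coding scale.

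Chromatin genes were as divided. Replication-dependent histones rose in 45 and fell in 2 of 55 cases (median 1.78), with summed TPM of 7806 and 7537 in zygotes and 13130, 13010 and 12470 in 2-cell embryos. Hist2h2ac rose from 9.57 and 4.0 TPM to 264, 221 and 245 TPM (log2 difference 5.07, SE 0.29, adjusted p = 7.58e-08). Of 38 linker histones and histone variants tested, 19 fell and 11 rose (median -0.46), and 15 fell and 16 rose on the protein-coding scale. H1foo, the linker histone of the oocyte, fell from 699.8 and 778 TPM to 62.2, 79.1 and 81.8 TPM (log2 difference -3.30, SE 0.13, adjusted p = 6.97e-09), and Hist1h1b, a linker histone of dividing cells, rose from 7.91 and 3.4 TPM to 64.7, 74.3 and 79.9 TPM (log2 difference 3.56, SE 0.24, adjusted p = 2.17e-07). The other linker histones did not all follow Hist1h1b. H1fx, H1f0, Hist1h1e and Hist1h1d were called lower, with differences of -2.68, -1.51, -1.48 and -0.51, and Hist1h1c higher, by 0.95. Hist1h1a, at 3999 and 3872 TPM in zygotes, was not called (log2 difference 0.095). H2afz, the variant at active promoters, rose from 17.9 and 15.6 TPM to 268, 271 and 212 TPM (log2 difference 3.82, SE 0.14, adjusted p = 4.14e-09). Of 33 Polycomb genes and H3K27 demethylases, 16 fell and 8 rose (median -0.39), and 13 fell and 12 rose on the protein-coding scale (median -0.08). Ezh2, the H3K27 methyltransferase, fell from 267 and 257 TPM to 61.97, 70.7 and 76.8 TPM (log2 difference -1.90, SE 0.11, adjusted p = 7.33e-08), and its partner Eed and the demethylase Kdm6b were lower, with differences of -2.21 and -1.54. Pcgf5, of Polycomb complex PRC1, rose from 6.66 and 8.31 TPM to 84.7, 95.3 and 111 TPM (log2 difference 3.53, SE 0.16, adjusted p = 1.45e-08).

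Of 33 genes of DNA methylation and imprint protection, 17 fell and 13 rose (median -0.48), and 12 fell and 14 rose on the protein-coding scale. Dnmt1, the maintenance methyltransferase, fell from 657 and 740.0 TPM to 61.2, 69.8 and 75.5 TPM (log2 difference -3.33, SE 0.12, adjusted p = 4.19e-09). Zfp57, which guards imprints, fell from 3466 and 2863 TPM to 328, 367 and 373 TPM (log2 difference -3.14, SE 0.11, adjusted p = 3.01e-09). Kdm4c, an H3K9 demethylase, rose from 1.44 and 0.861 TPM to 45.8, 44.2 and 41.1 TPM (log2 difference 4.39, SE 0.18, adjusted p = 7.11e-09). Of 25 genes known for imprinting by maternal H3K27me3, 13 passed the low-value filter, 9 of them rose and 2 fell. Genes near 0 in zygotes could be tested only if they reached 1 TPM elsewhere, so the filter set part of this split. Jade1 rose from 1.37 and 0.876 TPM to 25.6, 23.9 and 20.8 TPM (log2 difference 3.53, SE 0.17, adjusted p = 1.88e-08) and Myoc fell from 6.29 and 6.43 TPM to 0.76, 0.44 and 0.644 TPM (log2 difference -2.19, SE 0.18, adjusted p = 1.15e-06). The values do not separate the parental alleles.

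Of 55 DNA replication genes, 32 fell and 15 rose (median -0.58), and 25 fell and 20 rose on the protein-coding scale (median -0.10). Pcna, the sliding clamp, had 135 and 121 TPM and 64.9, 90.96 and 80.6 TPM (log2 difference -0.70, SE 0.13, adjusted p = 0.000636) and was not called on the protein-coding scale, and Rfc3, of the clamp loader, fell from 31.6 and 31.8 TPM to 1.95, 1.69 and 1.92 TPM (log2 difference -3.52, SE 0.13, adjusted p = 4.14e-09). In energy metabolism, 21 of 40 genes of glucose and pyruvate use fell and 13 rose (median -0.57, and 16 each on the protein-coding scale). Ldhb, the lactate dehydrogenase of the egg, fell from 2126 and 2265 TPM to 177, 232 and 236 TPM (log2 difference -3.36, SE 0.12, adjusted p = 3.81e-09), and Slc2a3, a glucose transporter, rose from 0.948 and 0.777 TPM to 10.5, 12.5 and 9.77 TPM (log2 difference 2.67, SE 0.18, adjusted p = 2.94e-07). Of 75 nuclear genes of the respiratory chain, 36 fell and 22 rose (median -0.19, with 29 down and 34 up on the protein-coding scale). Of the 37 mitochondrially encoded genes 20 rose and none fell. mt-Co1 had 4997 and 3646 TPM in zygotes and 10170.0, 9150.5 and 10214 TPM in 2-cell embryos (log2 difference 1.20, SE 0.16, adjusted p = 4.33e-05), a call that was lost with quantile normalization. Among 26 genes of p53 and stress response 11 rose and 6 fell (median 0.28). Sesn2, a stress sensor of the amino acid pathway, rose from 2.32 and 2.08 TPM to 199, 188 and 175 TPM (log2 difference 5.88, SE 0.18, adjusted p = 1.49e-09), and Ddit3, or Chop, fell from 117 and 128 TPM to 35.1, 31.8 and 35.7 TPM (log2 difference -1.81, SE 0.17, adjusted p = 3.4e-06).

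A cluster of microRNA hairpins on the X chromosome rose together. It was picked after its values were seen, and lies between 66776757 and 66839125 (mm10), all hairpins on the minus strand. Of its 19 hairpin loci, 16 were tested, 15 were called higher and none lower, with a median of 3.23. The libraries were made from total RNA, and reads on a locus of about 60 to 80 bases do not measure the mature microRNA. Summed over the cluster there were 77 and 313 recovered reads in zygotes and 891, 858 and 833 in the shallower 2-cell libraries. As TPM these sums were 103.3 and 143.3, then 1119, 1182 and 1368. Mature sequences of the members that share a seed are shown, since the seed (bases 2 to 8, in capitals) sets which targets a microRNA can pair with. They are from RefSeq, GRCm38.p6, in RNA letters.
mmu-miR-465a-5p: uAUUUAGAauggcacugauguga
mmu-miR-465b-5p: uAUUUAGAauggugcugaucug
mmu-miR-465c-5p: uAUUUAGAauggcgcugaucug
mmu-miR-465d-5p: uAUUUAGAaugguacugauguga
mmu-miR-465a-3p: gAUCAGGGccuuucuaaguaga
mmu-miR-743a-3p: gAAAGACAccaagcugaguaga
mmu-miR-743b-3p: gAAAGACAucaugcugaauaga
mmu-miR-883a-3p: uAACUGCAacagcucucaguau
mmu-miR-883b-3p: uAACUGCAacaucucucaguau
mmu-miR-743a-5p: uAUUCAGAuuggugccugucau
mmu-miR-871-5p: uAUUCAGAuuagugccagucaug
The 5p arms of miR-465a, miR-465b, miR-465c and miR-465d share 1 seed, and miR-465a-3p, miR-465b-3p and miR-465c-3p have the same sequence throughout. The 3p arms of miR-743a and miR-743b share a seed, as do those of miR-883a and miR-883b and the 5p arms of miR-743a and miR-871. In all, the 36 mature entries of the 19 loci carry 26 seeds.

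The hairpins with the largest rises were Mir883a and Mir871. Mir883a had 0 and 1.8 TPM in zygotes and 65.9, 73.4 and 86.2 TPM in 2-cell embryos (log2 difference 5.50, SE 0.55, adjusted p = 5.36e-06), and Mir871 had 1.29 and 0.443 TPM and 71.1, 65.9 and 53.6 TPM (log2 difference 5.14, SE 0.23, adjusted p = 1.56e-08). Mir743, the hairpin of miR-743a, had 3.21 and 11.6 TPM and 102, 144 and 151 TPM (log2 difference 4.17, SE 0.46, adjusted p = 1.23e-05), and Mir743b 21.98 and 3.99 TPM and 187, 146 and 218 TPM (log2 difference 4.09, SE 0.69, adjusted p = 0.00031). Each of these had all 2-cell libraries above both zygote libraries. Mir470 showed the smallest called rise, from 11.9 and 27.8 TPM to 40.8, 47.4 and 64.7 TPM (log2 difference 1.40, SE 0.42, adjusted p = 0.0122). Mir465, the hairpin of miR-465a, rose from 1.35 and 15.2 TPM to 55.2, 79.5 and 54.1 TPM (log2 difference 3.35, SE 0.59, adjusted p = 0.000464), whereas its near copies Mir465c-1, Mir465b-1, Mir465c-2 and Mir465b-2 had at most 1.29 TPM in any ROSI library. How reads shared by such copies were assigned is not given in the sources used here. Gm14681, a pseudogene between the hairpins on the same strand, rose too, from 6.3 and 13.2 TPM to 29.8, 40.3 and 47.3 TPM (log2 difference 1.95, SE 0.33, adjusted p = 0.000321). After ICSI the median over the same 16 loci was 4.08, and none differed between ROSI and ICSI in the test of the difference.

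**Figure D5:**
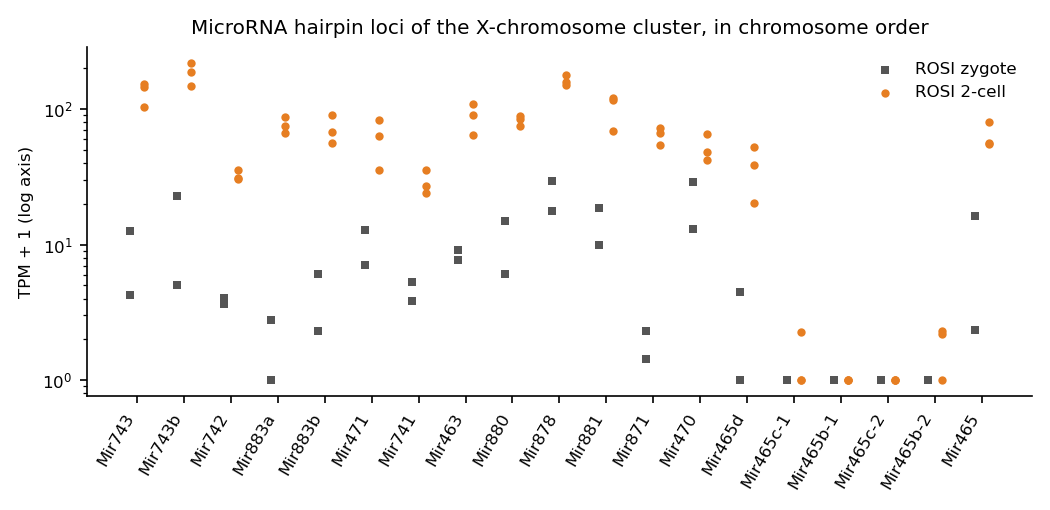
TPM + 1 on a log axis for the 19 hairpin loci of the X-chromosome cluster in chromosome order, with grey squares for ROSI zygotes and orange circles for ROSI 2-cell embryos. From Mir743 to Mir465d and at Mir465 the orange points lie above the grey ones, and the 4 near copies of Mir465 in between are at or near 0.

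Over all 330 loci tested with a Mir symbol, 74 were called higher and 8 lower, with a median of 0.74, so the X cluster gave 15 of the 74. Loci near 0 in zygotes could be tested only if they reached 1 TPM elsewhere, so the filter set part of this lean. Mir290a, the first hairpin of the cluster that embryonic stem cells express, had no reads in either zygote library, which allows up to 3 reads in each, and 15, 12 and 10 reads in the 2-cell libraries, and limma called it higher (adjusted p = 0.00132). The other 8 hairpins of that cluster had no read in any ROSI library. Mir5119 and Mir3475 were likewise at 0 in the zygotes, and had 26.04, 35.6 and 23.4 TPM and 32.8, 12.5 and 33.6 TPM in 2-cell embryos. Mir1960 fell, from 3.83 and 11.8 TPM to 0, 2.6 and 0 TPM (log2 difference -2.36, SE 0.57, adjusted p = 0.00343), and the call was lost without zygote library 2. Mir5119 lies within Cdk12 and Mir1960 within Hadhb on the same strand, and reads of hairpin and host cannot be told apart.

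Transcripts known from spermatids, the type of cell injected, behaved less uniformly than those of the oocyte. The lists were not matched in level, and the 54 other stored oocyte transcripts summed to 42100 and 43530 TPM in zygotes, far above the spermatid list. Whether the spermatid transcripts came in with the injected cell was not tested. Of 80 in the table, 61 passed the low-value filter, 25 of these fell, 6 rose and 30 were not called, with a median of -0.38. The list depends on the zygote library: without zygote library 1, 16 fell and 9 rose (median -0.036), and without zygote library 2, 32 fell and 3 rose (median -0.996). On the protein-coding scale 21 fell and 9 rose, with a median of -0.02. Their summed TPM was 700.5 and 450.1 in zygotes and 376.8, 389.0 and 428.4 in 2-cell embryos, so every 2-cell library was below both zygote libraries, but zygote library 2 was near them. Prm2, the protamine that packs sperm DNA, fell from 31.1 and 28.7 TPM to 6.02, 1.7 and 4.75 TPM (log2 difference -2.69, SE 0.37, adjusted p = 7.41e-05). Meig1, needed for the sperm tail, fell from 38.5 and 18.02 TPM to 6.15, 3.78 and 2.2 TPM (log2 difference -2.52, SE 0.34, adjusted p = 6.65e-05), and Tnp1, a transition protein, from 4.56 and 4.76 TPM to 4.03, 1.86 and 1.67 TPM (log2 difference -0.75, SE 0.28, adjusted p = 0.0347). The call of Tnp1 was lost without either zygote library and without 2-cell library 2 or 3. Crisp2, of the acrosome and tail, had 17.2 and 6.06 TPM in zygotes and 9.91, 6.28 and 9.44 TPM in 2-cell embryos, with overlapping libraries, and was not called (log2 difference -0.27, SE 0.34, adjusted p = 0.499). Smcp, of the sperm mitochondrial capsule, also overlapped, with 19.6 and 6.43 TPM and 12.1, 5.22 and 8.11 TPM (log2 difference -0.45, SE 0.39, adjusted p = 0.329). Crisp2, Smcp and Meig1 were all higher in zygote library 1 than in zygote library 2, and without zygote library 2 Crisp2 and Smcp were called lower, with differences of -0.95 and -1.19. Tsga8, a testis gene, rose from 5.21 and 1.31 TPM to 31.4, 26.4 and 34.03 TPM (log2 difference 3.05, SE 0.36, adjusted p = 2.14e-05).

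Lists for other cells of the testis and for cumulus cells, which such samples could hold, were measured too. Of 24 genes of other testis cells 15 were tested, 6 rose and 5 fell (median 0.41), with log2 differences from -3.27 to 3.71. Their summed TPM was 1898 and 1802 in zygotes and 590.7, 621.1 and 693.9 in 2-cell embryos, more than the spermatid list. Most of that sum is Uchl1, a deubiquitinase that oocytes also express, with 1375 and 1323 TPM and then 193, 195 and 253 TPM (log2 difference -2.66, SE 0.12, adjusted p = 1.8e-08). Myh11, a smooth muscle myosin, had 293 and 279 TPM and then 30.2, 24.7 and 32.2 TPM (log2 difference -3.27, SE 0.13, adjusted p = 5.39e-09), and Acta2, another smooth muscle gene, was at most 0.056 TPM. The Sertoli and Leydig cell genes Sox9, Amh, Wt1, Insl3 and Cyp11a1 were below 1 TPM in all 5 libraries. The genes named here do not include the largest rise of the list and do not stand for all of it. The part of other testis cells in the results was not tested. Of 25 cumulus genes 11 were tested, 3 rose and 4 fell, with summed TPM of 22.5 and 25.2 in zygotes and 53.3 to 62.4 in 2-cell embryos. The rise in the sum is that of Amhr2, a receptor subunit, which had 0.0497 and 0.0852 TPM and then 41.6, 41.5 and 48.3 TPM (log2 difference 5.39, SE 0.20, adjusted p = 4.14e-09). Of the 8 cumulus markers, Has2, Ptx3, Fshr and Inha were below 1 TPM in all 5 libraries. Foxl2 reached 1.79 TPM in 1 of them. Only 4 of the 8 markers were tested, of which 2 rose and 1 fell, with a lowest log2 difference of -2.66. The 8 summed to 10.37 and 13.95 TPM in zygotes, so markers not named here hold part of that sum. Whether cumulus cells had a part in the rise of Amhr2 was not tested. Of the 8 markers of oocyte and zygote 7 fell and none rose, and of the 8 markers of the 2-cell embryo 7 rose and none fell.

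The stage change after ROSI was set against that after ICSI by the difference of the 2 changes in the same model, in which the groups share no library. At an adjusted p under 0.05, 4 of 21938 genes differed (0.0182%), and 3303 (15.1%) had an unadjusted p under 0.05. Gucy2e, a guanylate cyclase gene, rose after ROSI, from 4.01 and 3.67 TPM to 14.1, 15.1 and 13.9 TPM (log2 difference 1.67, SE 0.14, adjusted p = 1.23e-06), and its log2 change after ICSI was -0.05. The count ranged from 0 to 668 over the other settings, and without 1 library it was 37 (without ROSI 2-cell library 3), 9 (without ROSI zygote library 2), 6 (without ICSI 2-cell library 1 or 3), and 1 or 0 otherwise. A p that misses the threshold does not show that the changes were alike.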

How the data were processed

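RNA was extracted from embryos with ISOGEN II and made into stranded SMART-seq libraries from 1 ng of total RNA, per the labels' protocols. The authors deposited 1 table of TPM for 49585 genes and 11 libraries. The submitters' processing notes name fastp, Bowtie2, STAR 2.7.4a, featureCounts and mm10; their roles, the annotation, strand setting and read filters are not given in the sources used here. Multiplying TPM by GENCODE M21 exon length gave reads, whole within 0.01 for 86% to 89% of low values (2% by chance), from which depth was taken.

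Genes that reached 1 TPM in 2 or more of the 11 libraries were tested with limma 3.58.1 (R 4.3.3) on log2(TPM + 1), with 4 group means over 11 libraries (7 residual degrees of freedom), a trended variance prior and Benjamini-Hochberg adjustment at 0.05. The test was checked on simulated data. Named genes were up to 15 per direction with the largest difference, the 2 highest and 2 lowest of each list, up to 10 microRNA loci, the 10 most abundant, those that differed between ROSI and ICSI, and a set of followed genes; others are named as picked after their values were seen. The members and lists were chosen with earlier results of these data known. Alternatives were other pseudocounts, filters, scalings, priors, weights, a 2-fold null, the replicate block, and leaving out each library.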

Additional observations from a re-analysis of the deposited data

Results flagged for a closer look

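For 4 genes the stage change after ROSI differed from that after ICSI in the test of the difference itself, with limma adjusted p between 0.026 and 0.032. The largest was Gm44565, an unprocessed pseudogene, whose change after ROSI exceeded that after ICSI by 2.64 (SE 0.31). It had 0.740 and 0.761 TPM in ROSI zygotes and 17.2, 19.6 and 18.1 TPM in ROSI 2-cell embryos, against 6.19, 5.19 and 3.52 TPM and then 6.87, 9.92 and 12.0 TPM after ICSI. Gucy2e, a guanylate cyclase gene, differed by 1.72 (SE 0.18). Its ICSI libraries had 5.96, 6.43 and 5.92 TPM in zygotes and 4.88, 6.28 and 6.57 TPM in 2-cell embryos. C130074G19Rik, a protein-coding gene, differed by 1.52 (SE 0.18), with 30.5, 34.4 and 33.0 TPM in ROSI and 13.1, 15.1 and 14.3 TPM in ICSI 2-cell embryos. Gm5542, an unprocessed pseudogene inside the switched-on stretch of chromosome 3, differed by -1.80 (SE 0.18), with 15.4, 16.3 and 18.2 TPM in ROSI and 41.5, 44.6 and 47.3 TPM in ICSI 2-cell embryos. Each was called in 10 to 13 of the 22 or 23 settings that gave it a value. No cause was tested.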

How the results depend on the processing

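Of 211 named genes, 167 kept their call, and their direction where called, in every alternative that gave them a value. The runs without 1 ICSI library were not part of this check. A change of sign was not counted for genes called in neither run, such as Gspt1 (-0.29, and 0.19 on the protein-coding scale). With a filter of 5 TPM only 12910 genes were tested, 5113 were called higher and 5729 lower. All 10725 main calls among them were kept. On the scale of protein-coding genes alone 13925 were tested, 6469 were higher and 4719 lower. Quantile normalization gave 6638 higher and 8129 lower, so which direction held more genes depended on the setting. Against a 2-fold null 3703 were higher and 3235 lower. Leaving out any 1 of the 11 libraries gave 6645 to 8031 higher and 6286 to 7200 lower, and any 1 of the 5 ROSI libraries at most 7140 lower. Same-numbered zygote and 2-cell libraries correlated at 0.038 and 0.016 after removing group means, so the numbers were not taken to pair the libraries. With the replicate block 7588 genes were higher, 7028 lower and 0 differed between ROSI and ICSI. That last count was 94 with a pseudocount of 5, 13 with no filter, 71 with the 5 TPM filter, 244 with median-ratio scaling, 197 with quantile normalization, 668 on the scale of protein-coding genes alone, 97 for all genes on that scale, 220 with array weights, 0 against a 2-fold null and 0 to 37 without 1 library. Switched-on genes numbered 85 and lost genes 5 with limits of 0.1 and 5 TPM, and 401 and 24 with limits of 1 and 10 TPM. Over protein-coding genes alone with TPM rescaled to them they numbered 238 and 3 (208 and 5 of these before). Without 1 library they numbered 427 to 638 and 29 to 49, where the rule lets neither count fall. Among named genes called in the main or the alternative run, directions reversed for Zp3 (0.31 on the protein-coding scale) and Psma4. Psma4 had 0.12 with quantile normalization and 0.020 on the protein-coding scale over protein-coding genes or all genes. With quantile normalization they also reversed for Hist1h2aa (0.28), Npm1 (0.065), Ncl (0.071) and Rn7sk (-0.052). With that normalization mt-Rnr2 had a difference of 0.0 and so no direction. The cause was not tested. Depth differed by stage, and genes with few reads in the shallower 2-cell libraries are the least certain.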

Other observations

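RNA classes outside the messengers changed in unequal directions. Of 891 antisense genes tested, 371 were called higher (41.6%) and 164 lower (18.4%). Of 1951 processed pseudogenes, 671 were higher (34.4%) and 267 lower (13.7%). Among protein-coding genes 36.4% were higher and 41.2% lower. Of 504 loci marked as yet to be experimentally tested, 287 were higher (56.9%) and 42 lower (8.33%). Of 398 small nucleolar RNA genes 99 were higher (24.9%) and 15 lower (3.77%), both below the shares of protein-coding genes. Long intergenic RNAs were split, with 324 higher and 349 lower of 1031. Antisense genes and their partners were counted with a strand setting that is not given in the sources used here, and reads of a pseudogene and its parent gene cannot be told apart.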
